A study of Mus musculus with 6 samples.

Results

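The RNA of each X-linked gene was split into the part read from its cas allele and the part read from its mus allele, and day 7 of differentiation was compared with day 0 in mouse embryonic stem cells (female, line 16.7 TST, genotype WT in the labels). Of 372 listed genes, 302 had at least 20 allele-specific reads summed over the 2 libraries of each day and were followed. The other 70 missed that minimum at day 0 only (15), at day 7 only (49) or on both days (6). Per gene and library, cas TPM was the total TPM times the cas share of allele-specific reads, and mus TPM was the rest, so that both add up to the total. TPM is a length-corrected transcript level relative to all transcripts of a library. The question was which genes offset the loss of mus RNA by a gain of cas RNA, and which lost total RNA.

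Day 0 cells grew undifferentiated on feeders, which were irradiated embryonic fibroblasts, in medium with LIF, and day 7 cells had been taken off the feeders, grown without LIF as embryoid bodies and moved to gelatinised plates on day 4. Each day had 2 libraries of rRNA-depleted total RNA. The labels name 1 line and do not say that the replicates were separate cultures, so p-values measure the spread between these libraries, which may be technical. Line 16.7 is known in the field as a female hybrid whose X chromosomes, of castaneus (cas) and musculus (mus) origin, can be told apart by sequence. TST is used there for a premature stop of Tsix on the mus X, which makes that X the one that is silenced; the labels do not explain the name, and the file headers call the mus share Xi (inactive X) and the cas share Xa (active X). Undifferentiated female stem cells express both X chromosomes. During differentiation the noncoding RNA Xist coats 1 of them and silences most of its genes, escape genes excepted, and the genes of the active X are then the main source of X-linked RNA.

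The day 0 libraries held 113708 and 124488 allele-specific reads, and those of day 7 held 71193.5 and 69742. The median member had 172 and 199 reads at day 0 and 111 and 106 reads at day 7, so splits were less precise at day 7. The listed genes held 3.12% and 2.97% of all TPM at day 0 and 2.18% and 2.17% at day 7. The deposited TPM of the day 7 pair were close to each other, with an SD of their log2 ratio of 0.0415 over genes against 0.271 for the day 0 pair. Their reads were not: the same SD was 0.548 at day 7 and 0.386 at day 0. Across genes, the differences between replicates in total TPM correlated at -0.99 between day 4, whose 2 libraries also entered the fit, and day 7. The TPM of these 4 libraries are thus not independent, although the fit treats them so. Whether the TPM were smoothed or rescaled before deposit is not given in the sources used here, so they may not be separate measurements of each library, and SDs and p-values that rest on them may be too small. With the day 0 and day 7 libraries alone, 53 genes offset their loss, against 52 with all 6 libraries, and 38 had a partial offset, against 42. That fit still rests on the day 7 pair, so it cannot show whether the spread of that pair is real. In bulk RNA, fewer cells of a type and less RNA per cell cannot be told apart.

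Summed over the 302 genes, the mus allele gave 13589 and 12946 TPM at day 0 and 1703 and 1775 TPM at day 7, a change of -86.9%. The cas allele gave 14026 and 13374 TPM at day 0 and 18775 and 18618 TPM at day 7, a change of 36.5%. Both day 7 libraries lay above both day 0 libraries in cas RNA and below them in mus RNA. The gain of 4997 TPM in cas RNA covered 43.3% of the mus loss, as mus RNA fell by 11528 TPM, with 38.9% to 48.0% over the 4 pairs of a day 0 and a day 7 library. That share depends on the scale between libraries. It was 115% relative to the summed listed genes and 85.6% centred on the median gene. These scales hold the summed or the median total of the listed genes equal between libraries, so they partly set the share by construction. From reads it was 30.9% scaled by the summed TPM and 91.4% scaled to the median gene. Both read scales tie reads to the deposited TPM, by the ratio of sums or by the median gene's ratio. The last scale thus differs from centring on the median gene. Total RNA of the set went from 26967 ± 915 to 20436 ± 60.1 TPM (SD, n = 2), a change of -24.2%. Each of these 3 differences had an exact two-sided permutation p of 0.33, the smallest that 2 libraries against 2 allow. Without the 6 fibroblast marker genes among the members the share covered was 41.2%.

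**Figure D1:**
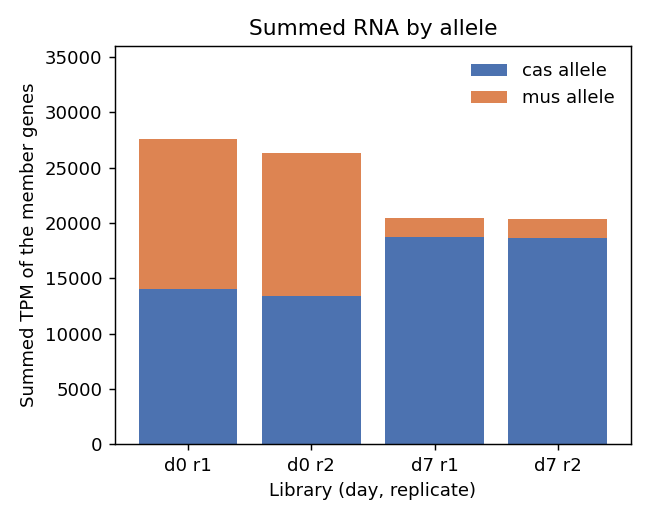
Summed TPM of the 302 genes in each of the 4 libraries (x axis), stacked by allele, cas below and mus above. Cas RNA rose from 14026 and 13374 to 18775 and 18618 TPM while mus RNA shrank to 1703 and 1775 TPM.

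Changes per gene were tested with limma on log2(TPM + 1) over the whole table, and a gene was called at an adjusted p under 0.05. Mus TPM was lower at day 7 in 291 of 302 members and higher in 5, against 92.4% lower and 2.17% higher over all genes tested. Cas TPM was higher in 186 and lower in 73 (57.1% and 29.9% of all genes tested). Total TPM was lower in 157 and higher in 93 (54.0% and 30.9%). The median member changed by -2.87 in mus, 0.56 in cas and -0.24 in total TPM on the log2 scale, and over all genes tested the median total change was -0.37. These calls are relative to all RNA of a library. Relative to the summed listed genes, whose summed total is then equal in every library by construction, 153 members were higher and 113 lower in total and 219 higher and 44 lower in cas RNA, and the median total change over all genes was 0.094. In edgeR's test on the reads themselves, with libraries scaled by the summed TPM, 72 were higher and 171 lower in total and 137 higher and 86 lower in cas RNA, with the median total change over all genes at -0.78.

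The 3 calls together placed the 291 genes with less mus RNA in 5 groups. Mus loss was met by a cas gain with no called change of total in 52 genes (15.1% of all genes with a value), outrun by the cas gain with a higher total in 82 (24.3%), and met in part with a lower total in 42 (12.0%). In 42 more cas RNA was not called and total fell (12.8%), and in 73 both alleles and the total fell (28.8%). So 157 members lost total RNA, against 53.6% of all genes. As a share of the mus loss in TPM, the cas gain of the median gene was 52.4%, with quartiles of -23.6% and 162%; it was 100% or more in 108 genes, between 0 and 100% in 90 and negative in 93. An error in an allele share moves cas and mus TPM in opposite directions, so this share is uncertain where reads are few. The median was 116% relative to the summed listed genes, 89.1% centred on the median gene, and 19.9% and 68.7% from reads on the sum and the median scale. The values of 116% and 89.1% are partly set by their scales, which hold the summed or the median total equal between libraries. Among the 264 genes with a day 0 mus share of 35% to 65% the median was 52.4%.

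**Figure D2:**
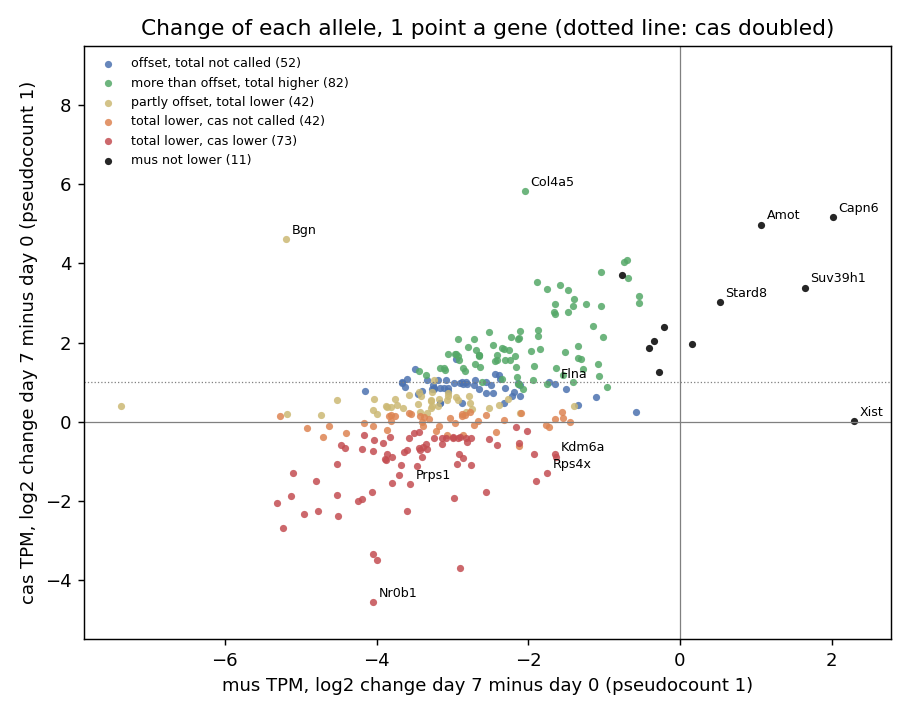
Log2 change of mus TPM (x axis) and of cas TPM (y axis) from day 0 to day 7 for the 302 genes, 1 point a gene, coloured by group. Most points lie left of 0 on the mus axis, while the cas axis spreads from -4.56 (Nr0b1) to 5.82 (Col4a5), and Xist stands at the right at a cas change of 0.015.

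The 52 genes that offset their mus loss included cytoskeletal, metabolic and ubiquitin genes. Flna encodes filamin A, which crosslinks actin. Its cas allele gave 176 and 162 TPM at day 0 and 336 and 325 TPM at day 7, and its mus allele 209 and 188 TPM at day 0 and 60.1 and 65.4 TPM at day 7. The alleles crossed over, and the total in TPM was not called (from 367 ± 24.3 to 393 ± 3.44 TPM, SD, n = 2), with a log2 change of 0.099 ± 0.056 (SE) and a 95% interval of -0.034 to 0.23 (limma). In reads scaled to the median gene the Flna total was called higher, by 1.13 (edgeR, adjusted p = 4.17e-10), and without day 0 replicate 1 its TPM change was called too (0.17). Idh3g encodes a subunit of the mitochondrial isocitrate dehydrogenase. Cas RNA of Idh3g went from 117 and 126 TPM to 221 and 216 TPM and mus RNA from 122 and 128 TPM to 43.2 and 44.2 TPM, so that every day 7 library was above every day 0 library in cas and below in mus RNA. The gain covered 119% of the loss (108% to 130.1% over library pairs), and the total change was 0.087 ± 0.051 (adjusted p = 0.146). In reads scaled to the median gene the Idh3g total was called higher, by 0.47 (edgeR, adjusted p = 0.000387), and without day 0 replicate 2 its TPM change was called (0.13).

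Msn, which encodes the membrane-actin linker moesin, went from 88.9 ± 3.08 to 187 ± 2.31 TPM in cas RNA, an offset of 108%, with a total change of 0.057 ± 0.049. For Cdk16, a cyclin-dependent kinase gene, the offset was 91.0%, and for Prdx4, a peroxiredoxin of the endoplasmic reticulum, 98.6%. Pja1, an E3 ubiquitin ligase gene, and Ubqln2, whose protein delivers ubiquitinated proteins to the proteasome, had 111% and 146%. Total RNA of Cdk16 and Prdx4 was higher relative to the summed listed genes (0.43 and 0.47) and in reads scaled by the summed TPM (0.57 and 0.79), and that of Pja1 was lower in those reads (-0.66). Totals of Msn and Ubqln2 were called higher in reads scaled to the median gene, by 0.43 and 1.59, and that of Ubqln2 also without day 0 replicate 2 (0.43) or either day 7 library (0.24 and 0.25). The totals of Flna, Idh3g, Msn, Ubqln2 and Pja1 were called higher as well relative to the summed listed genes, by 0.58, 0.57, 0.54, 0.73 and 0.54. Flna, Idh3g and these 5 were among the 8 members of the group with the most RNA at day 0. G6pdx, the first enzyme of the pentose phosphate pathway, kept 114 and 117 TPM in total as cas RNA went from 57.1 ± 12.2 to 109.5 ± 4.65 TPM. Over the group the offset ran from 53.0% to 148%, with a median of 100.4%, and the median cas change was 0.90. Ogt, the O-GlcNAc transferase gene, had the lowest value, as its mus RNA only went from 57.9 ± 4.74 to 38.3 ± 1.32 TPM. In reads scaled to the median gene the Ogt total was called higher, by 0.58 (edgeR, adjusted p = 4.36e-05), with cas RNA higher by 0.94. A total that was not called is not shown to be unchanged. For 37 of the 52 genes, and 40 of 302 in all (11.6% of all genes), the 95% interval of the total change lay between 20% lower and 25% higher.

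**Figure D3:**
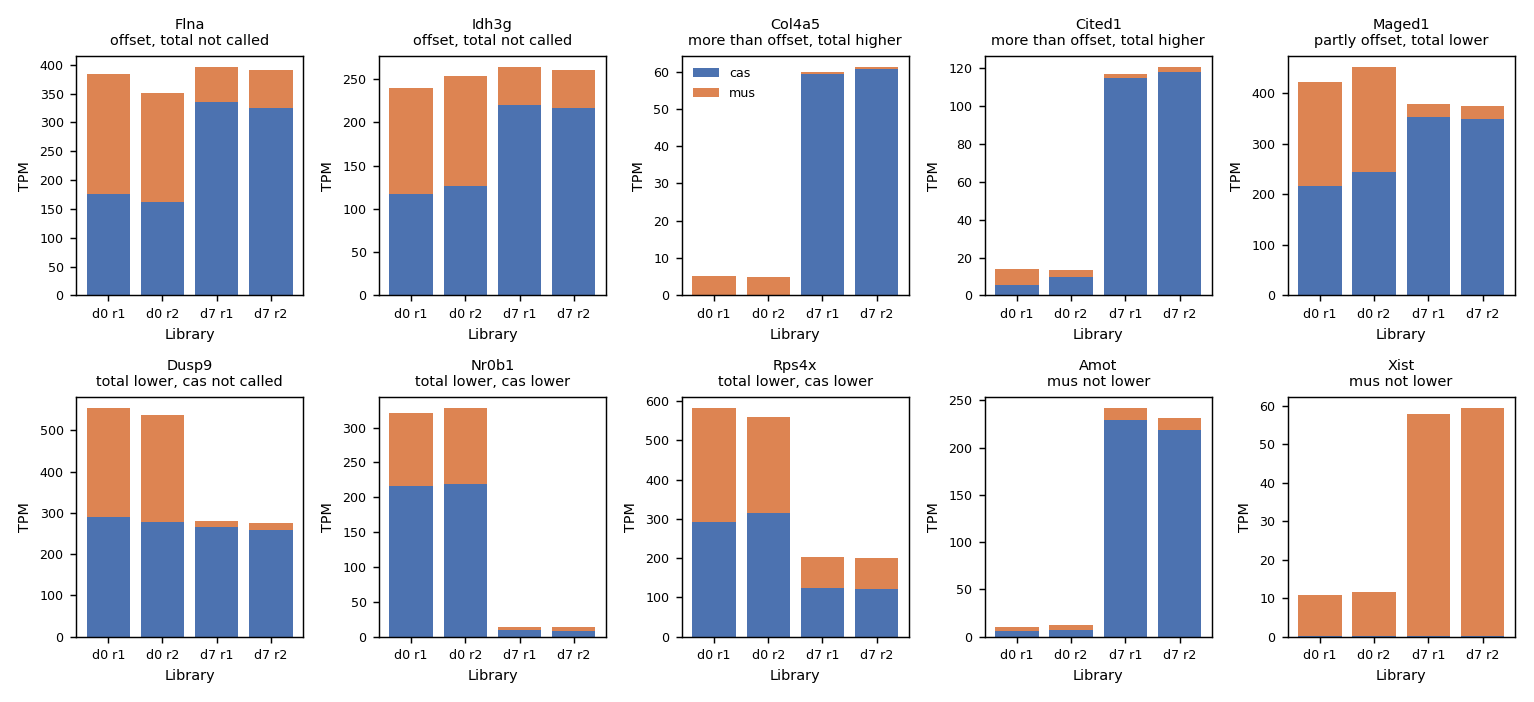
TPM of 10 genes in each of the 4 libraries (x axis), stacked by allele, cas below and mus above, with the group of each gene in its title. In TPM, Flna and Idh3g change little in height while the alleles exchange, though their reads scaled to the median gene were called higher (1.13 and 0.47), Col4a5, Cited1 and Amot grow by cas RNA, Nr0b1 and Rps4x shrink in both alleles, and Xist grows from the mus allele.

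In 82 genes cas RNA rose past the mus loss and total RNA rose, with a median cas change of 1.71 and a median total change of 0.91. Col4a5, a basement membrane collagen chain, had the largest rise of total in this group. Its cas allele gave 0 and 0.166 TPM at day 0 and 59.4 and 60.7 TPM at day 7, and its mus allele 5.2 and 4.76 TPM at day 0 and 0.459 and 0.435 TPM at day 7. RNA of this gene was thus nearly all mus at day 0 and nearly all cas at day 7, with a total change of 3.34 ± 0.074 (adjusted p = 1.39e-08). Col4a5 is also on the fibroblast list, and the part of feeder RNA in its day 0 mus RNA was not tested. Cited1, a transcriptional coactivator gene, went from 7.78 ± 2.89 to 117 ± 2.13 TPM in cas RNA and from 6.04 ± 3.19 to 2.26 ± 0.286 TPM in mus RNA, on 40 reads at day 0. Chst7, a chondroitin 6-sulfotransferase gene, also rested on 40 reads at day 0 and rose by 2.50. Mum1l1, Nhsl2 and C430049B03Rik rose by 3.23, 3.07 and 2.73 in total. In these 5 genes the mus change ran from -1.04 (Cited1) to -0.54 (Chst7), with adjusted p between 0.00638 and 0.0464, and relative to the summed listed genes none of these 5 mus calls was kept. The mus call was lost for Nhsl2 without either day 0 library (-0.74 and -0.64) or with day 7 replicate 1 left out (-0.44), and for C430049B03Rik without the same libraries (-0.84, -0.55 and -0.53). It was lost for Chst7 without day 0 replicate 2 (-0.45) or either day 7 library (-0.58 and -0.50), and for Cited1 without either day 4 library (-1.04).

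Of 17 members on the development list, 8 were in this group, and 9 rose and 7 fell in total, with a median total change of 0.68 beside -0.24 for all members. Of all genes with a value 24.3% were in this group, and of all genes tested 30.9% rose and 54.0% fell in total. Gpc3, a heparan sulfate proteoglycan of the cell surface, went from 120.0 ± 2.05 to 309 ± 4.41 TPM in cas RNA against a mus loss from 90.0 ± 6.72 to 28.4 ± 4.18 TPM. Efnb1, the ligand ephrin-B1, went from 41.7 ± 1.31 to 175 ± 1.72 TPM in total, and L1cam, a neural adhesion molecule, from 6.99 ± 1.32 to 38.3 ± 0.534 TPM. Gpc4, the glypican gene next to Gpc3, went the other way, from 45.2 ± 5.36 to 17.2 ± 2.77 TPM in cas RNA. Of the list's 2 members with the most RNA at day 0, Bex1 fell from 483 ± 28.7 to 262 ± 4.72 TPM in cas RNA and Bex2 rose from 104 ± 0.897 to 152 ± 0.933 TPM in cas RNA, which covered 42.7% of its mus loss. The cas change of Bex2 was -0.21 in edgeR's test on reads with libraries scaled by the summed TPM. Bex1 and Bex2 are closely related copies, and the authors' counting could split reads between them, so both are uncertain.

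A partial offset was found in 42 genes, with a median of 40.4% of the mus loss covered and a median total change of -0.45. Maged1, a MAGE family adaptor gene, gave 216 and 244 TPM at day 0 and 354 and 349 TPM at day 7 in cas RNA and 206 and 208 TPM at day 0 and 25.6 and 26.2 TPM at day 7 in mus RNA. The cas gain covered 67.2% of the loss, and the total changed by -0.21 ± 0.052 (adjusted p = 0.00633). Relative to the summed listed genes the total of Maged1 was higher by 0.27, and in reads by 0.86 with libraries scaled to the median gene. Pqbp1, which acts in splicing, covered 27.3%, Smc1a, a cohesin subunit gene, 20.004%, and Naa10, a catalytic subunit of an N-terminal acetyltransferase, 24.2%. In edgeR's test on reads scaled by the summed TPM the cas change was -0.82 for Naa10 and -0.30 for Smc1a, while the cas call of Naa10 was lost without day 7 replicate 1 (0.24). That of Pqbp1 was lost without either day 4 library (0.34) or day 7 replicate 1 (0.29), and that of Smc1a without either day 4 library (0.24) or either day 7 library (0.24 and 0.23). The lower total of Maged1 was no longer called without day 7 replicate 1 (-0.22) or replicate 2 (-0.20). Rbbp7, a histone chaperone gene, gave no mus read among 23 at day 7, which puts its mus RNA at least 6.59-fold lower over the day 7 pair (3 reads as the floor, counting error only), and its cas gain covered 28.2% of the loss. In reads the cas gain of Rbbp7 was not called on the sum or the median scale (0.21 and 0.64). Its lower total was not called on the median scale (-0.50). Rbbp7 overlaps Txlng on the other strand, and whether counting used strand is not given. In all, 14 members had no mus read in either day 7 library. Bgn, a matrix proteoglycan, was in this group with cas RNA going from 0.110 ± 0.155 to 26.2 ± 2.19 TPM and mus RNA from 90.7 ± 9.86 to 1.52 ± 0.488 TPM. It is a fibroblast marker gene, and fibroblast feeders were present at day 0. The part of feeder RNA in its mus loss was not tested.

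In the next 42 genes cas RNA was not called and total RNA fell with the mus allele, with a median cas change of 0.026 and a median total change of -0.81. Dusp9, a phosphatase of ERK that is high in stem cells, showed this with 289 and 277 TPM at day 0 and 267 and 258 TPM at day 7 in cas RNA beside 264 and 259 TPM at day 0 and 13.4 and 16.4 TPM at day 7 in mus RNA. The cas values of both days were close and the total changed by -0.97 ± 0.052 (adjusted p = 9.43e-07). Relative to the summed listed genes its cas RNA was higher by 0.37, and in reads on the sum scale it was lower, by -0.50. Huwe1, a large ubiquitin ligase gene, went from 183 ± 9.91 to 182 ± 3.70 TPM in cas and from 188 ± 5.58 to 17.0 ± 0.808 TPM in mus RNA. Hcfc1, a cofactor of transcription, changed by 0.17 ± 0.066 in cas and -0.65 ± 0.063 in total RNA, and Nono, a paraspeckle RNA-binding protein gene, by -0.27 ± 0.15 and -1.09 ± 0.10. For cas RNA of these genes the 95% intervals were -0.26 to 0.047 for Dusp9, -0.17 to 0.15 for Huwe1, 0.0054 to 0.34 for Hcfc1 and -0.65 to 0.10 for Nono. Cas RNA of Hcfc1 was called higher relative to the summed listed genes (0.65) and in reads on the median scale (0.62), and that of Nono lower in reads on the sum scale (-0.76).

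Both alleles fell in 73 genes, with a median change of -0.81 in cas RNA and -1.59 in total. Nr0b1, an orphan nuclear receptor gene of the pluripotency network, fell most. Its cas allele gave 216 and 219 TPM at day 0 and 8.96 and 7.58 TPM at day 7, and its mus allele 105 and 109 TPM at day 0 and 4.98 and 6.14 TPM at day 7. The totals of the days lay far apart, with a change of -4.45 ± 0.055 (adjusted p = 4.83e-09). Nexmif, Pnma5, Mcf2, Ripply1, Zfp182, Txlng and Vbp1 followed with total changes from -4.00 to -3.11. Mcf2 encodes a guanine nucleotide exchange factor, Ripply1 a regulator of somite segmentation and Vbp1 a prefoldin subunit. Vbp1 changed less in reads on the median scale, by -1.02 in total and by -0.23 in cas RNA, which was not called (edgeR, adjusted p = 0.318). These 7 rested on 26.5 to 75.5 reads at day 7. Atrx, a chromatin remodeller gene, went from 148 ± 22.5 to 34.3 ± 1.34 TPM in cas RNA, Sms, spermine synthase, from 50.4 ± 11.5 to 8.68 ± 0.250 TPM, and Klhl13, an adaptor of a CUL3 ubiquitin ligase, from 283 ± 22.2 to 71.6 ± 1.46 TPM. Prps1, which makes the nucleotide precursor PRPP, fell from 120.5 ± 6.87 to 39.6 ± 4.26 TPM in cas RNA, and Hprt, the purine salvage enzyme, from 52.9 ± 1.53 to 33.0 ± 1.68 TPM. The cas change of Hprt in reads on the median scale was -0.29 and not called (edgeR, adjusted p = 0.148).

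Mus RNA was not called lower in 11 members (6.98% of all genes with a value), and those 11 all rose in total, by at least 1.02. In 5 it rose: Xist, Suv39h1, Stard8, Amot and Capn6. Xist RNA came from the mus allele, with 10.8 and 11.5 TPM at day 0 and 57.7 and 59.3 TPM at day 7 and at most 0.181 TPM of cas RNA in any of these libraries. The mus change was 2.29 ± 0.12 (adjusted p = 5.72e-06), and the gene overlaps its antisense partner Tsix. Amot encodes angiomotin, which binds actin and YAP. Its mus RNA went from 4.84 and 5.76 TPM to 12 and 12.4 TPM, while cas RNA went from 5.75 and 6.54 TPM to 229 and 219 TPM, so the mus share fell although mus RNA rose. Capn6, a calpain family gene, had only 22.5 reads at day 0 and went from 3.93 ± 2.07 to 168 ± 2.0 TPM in cas and from 1.48 ± 1.14 to 8.76 ± 3.25 TPM in mus RNA. Suv39h1, a histone H3 lysine methyltransferase gene, had 25 reads at day 0 and 282 at day 7, and its mus RNA went from 17.5 and 17.1 TPM to 50.9 and 62.3 TPM. Stard8, which encodes a GTPase-activating protein, went from 5.02 ± 0.962 to 7.65 ± 0.899 TPM in mus RNA (adjusted p = 0.0468), a log2 change of 0.53. That call was lost without either day 0 library (0.36 and 0.69), either day 4 library (0.53) or with day 7 replicate 2 left out (0.42). Mus RNA of Slc35a2, a sugar nucleotide transporter gene, was 9.52 ± 0.767 and 7.31 ± 0.979 TPM and was not called. That of the ubiquitin ligase gene Rnf128 was 3.40 ± 0.127 and 1.59 ± 0.0898 TPM, not called with all 6 libraries. With the day 0 and day 7 libraries alone mus RNA of Rnf128 was called lower, by -0.76 (limma, adjusted p = 0.00542). It was also called lower without either day 4 library (-0.76), so its place in this group rests on the day 4 libraries. The other 4 were Ftx, Mid1, Kctd12b and 3830417A13Rik.

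Escape genes keep some RNA from the silenced X, as known from mouse, and 15 of 16 on the list were members, with Jpx under the read minimum. Cas RNA was higher in 4, lower in 5 and not called in 6, and total fell in 10 and rose in 4. Of all genes tested, 57.1% were higher and 29.9% lower in cas RNA, and 54.0% fell and 30.9% rose in total. Their median cas change was 0.048 beside 0.56 for all members, and their median total change -0.60 beside -0.24. Of the 12 with less mus RNA, Syap1 and Shroom4 gained cas RNA in TPM as deposited. Cas RNA was also called higher, relative to the summed listed genes, for Kdm5c (0.54), 1810030O07Rik (0.51), Firre (0.63), 4933407K13Rik (0.64) and 5530601H04Rik (0.42). Kdm5c, an H3K4 demethylase gene, had 83.9 and 81.6 TPM at day 0 and 85.3 and 88.1 TPM at day 7 in cas RNA and 95.3 and 86.9 TPM at day 0 and 30.5 and 26.6 TPM at day 7 in mus RNA. The cas values lay close together (0.066 ± 0.051, interval -0.063 to 0.20), and total fell by 0.59. Kdm6a, an H3K27 demethylase gene, fell on both alleles, from 61.4 ± 3.18 to 33.1 ± 5.94 TPM in cas and from 62.8 ± 7.28 to 19.8 ± 5.47 TPM in mus RNA, on 73.5 reads at day 7. Eif2s3x, a translation initiation factor gene, changed by -0.81 ± 0.062 in cas RNA, Utp14a, which acts in ribosome assembly, by -0.53 ± 0.066, and Pbdc1 by -0.51 ± 0.11, all called lower. The call was lost relative to the summed listed genes for Utp14a (-0.050) and Pbdc1 (-0.032), in reads on the median scale for Utp14a (-0.11) and centred on the median gene for Pbdc1 (-0.20).

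Ddx3x, an RNA helicase gene, fell by 0.81 in cas TPM, but its cas reads were higher at day 7, by 0.93 in edgeR with libraries scaled to the median gene (adjusted p = 2.39e-06), so its direction depends on the measure. Firre, 1810030O07Rik, 5530601H04Rik and 4933407K13Rik had cas changes of 0.17, 0.048, -0.0093 and 0.25, none called, and totals that fell, though relative to the summed listed genes the total of 4933407K13Rik was higher by 0.13 and cas RNA of 5530601H04Rik by 0.42. The lower total of 4933407K13Rik was not called without day 7 replicate 1 (-0.26) or 2 (-0.28). Cas RNA of 1810030O07Rik and Kdm5c was lower in reads scaled by the summed TPM, by -0.55 and -0.28, but higher relative to the summed listed genes (0.51 and 0.54) and centred on the median gene (0.35 and 0.37). Cas RNA of Firre was called higher without day 0 replicate 1 (0.37), relative to the summed listed genes (0.63), centred (0.47) and in reads on the median scale (0.48). That of 4933407K13Rik was called higher without day 0 replicate 1 (0.34), relative to the summed listed genes (0.64), centred (0.50) and in reads on the median scale (0.79). Syap1 offset 79.0% of its loss, with a total change of -0.17 ± 0.095 that was not called. It was 0.30 relative to the summed listed genes, and it was called lower without day 0 replicate 2 (-0.31) and in reads on the sum scale (-0.46). Shroom4, a regulator of the cytoskeleton, rose from 4.79 ± 0.139 to 27.9 ± 0.238 TPM in cas RNA. The ubiquitin ligase gene Mid1 gave 0.542 ± 0.220 and 0.156 ± 0.0928 TPM of mus RNA, both under the pseudocount of 1 TPM, and its cas RNA rose from 2.35 ± 0.703 to 11 ± 0.262 TPM. Mus RNA of Mid1 was called lower without day 0 replicate 1 (-0.56). In the X-inactivation centre, which had 4 members, the noncoding gene Ftx rose from 4.14 ± 0.0936 to 19.1 ± 0.413 TPM in cas RNA with mus RNA at 3.40 ± 0.0649 and 3.94 ± 0.742 TPM, whereas Chic1 fell from 13 ± 1.09 to 5.51 ± 0.174 TPM and Rlim, an E3 ligase that promotes Xist expression, from 121 ± 12.3 to 82.8 ± 0.197 TPM in cas RNA. The cas call of Rlim was lost relative to the summed listed genes (-0.064). Ftx overlaps several genes, Jpx among them.

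Genes of ribosomes and translation lost total RNA in 8 of 8 members, with cas RNA lower in 6, not called in 1 and higher in 1, where 54.0% of all genes tested fell in total and 29.9% in cas RNA. Their median total change was -1.20. Rps4x, a ribosomal protein gene of the small subunit, gave 292 and 315 TPM at day 0 and 123 and 122 TPM at day 7 in cas RNA and 289.6 and 244 TPM at day 0 and 79.0 and 77.7 TPM at day 7 in mus RNA. Both alleles were below their day 0 values in both day 7 libraries, with a total change of -1.50 ± 0.046 (adjusted p = 5.41e-08), and processed copies of the gene elsewhere in the genome may share its reads. Dkc1, a pseudouridine synthase of ribosomal RNA, went from 97.9 ± 4.76 to 73.4 ± 0.0831 TPM in cas RNA, and Eif1ax, an initiation factor gene, from 45.1 ± 4.37 to 33.4 ± 0.779 TPM. Gspt2, a termination factor gene, gained cas RNA, from 32.6 ± 3.13 to 42.5 ± 0.0306 TPM. Rpl10, which forms part of the large subunit, had 35.8 ± 15.1 and 32.3 ± 0.670 TPM of cas RNA, not called. In reads on the median scale the cas changes of Eif1ax (0.061), Gspt2 (-0.10) and Utp14a (-0.11) were not called, so the tally in cas RNA rests on TPM.

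Among mitochondrial genes cas RNA was higher in 9 of 10 members and lower in 1. The share of all genes tested with more cas RNA was 57.1%. Total RNA fell in 5, rose in 1 and was not called in 4, near the 54.0% of all genes that fell, and the median total change was -0.14. Pdha1, a subunit of pyruvate dehydrogenase, gained 54.0 TPM of cas RNA, 39.3% of its mus loss, and Ndufb11, a subunit of complex I, 62.6%. Timm17b, of the import machinery, covered 95.7% in TPM, but its total was called higher in reads scaled to the median gene, by 0.88 (edgeR, adjusted p = 0.000154). Hsd17b10, a dehydrogenase, rose in total, from 150.5 ± 8.48 to 197 ± 1.58 TPM.

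The RNA-binding list had cas RNA higher in 6 of 15 members and lower in 5, and total fell in 12 and rose in 1, with a median of -1.06. Rbm3, a cold-induced RNA-binding protein, fell from 56.6 ± 6.92 to 28.4 ± 0.986 TPM in cas RNA. Rbmx, a splicing regulator, rose from 33.2 ± 1.5 to 61.2 ± 1.42 TPM in cas RNA, with a change of total TPM of -0.0019 ± 0.057. In reads scaled to the median gene the Rbmx total was called lower, by -0.50 (edgeR, adjusted p = 0.00382). Of 28 members on the chromatin and transcription list 19 gained and 3 lost cas RNA, while 17 fell and 7 rose in total. Med12, a Mediator subunit gene, rose from 19.2 ± 0.811 to 86.5 ± 0.992 TPM in cas RNA, Tbl1x, a corepressor subunit gene, from 62.6 ± 4.98 to 183 ± 0.447 TPM, and Jade3 went from 25.2 ± 3.14 to 50.2 ± 0.544 TPM, an offset of 96.0%. In the enzyme list cas RNA was higher in 10 of 17 and lower in 6, and total fell in 9 and rose in 3. Nsdhl, of cholesterol synthesis, rose from 34.0 ± 3.84 to 149 ± 1.99 TPM, and Pgk1, of glycolysis, fell from 48.0 ± 1.58 to 21.8 ± 0.933 TPM in cas RNA. In the ubiquitin list 5 of 10 gained and 4 lost cas RNA, and total fell in 5 and rose in 4. Uba1, the ubiquitin-activating enzyme, changed by -0.14 ± 0.046 in cas RNA but by 0.34 relative to the summed listed genes and by 0.27 in reads scaled to the median gene, and its lower cas call was lost without either day 4 library (-0.14) or day 7 replicate 1 (-0.16) or 2 (-0.12), while Usp11 rose from 23.0 ± 2.32 to 126 ± 3.71 TPM and Usp9x fell from 83.9 ± 10.7 to 44.7 ± 0.459 TPM, both deubiquitinase genes. Of all genes tested 57.1% gained cas RNA and 54.0% fell in total, so the enzyme and ubiquitin lists, and the total of the chromatin list, lie near that background.

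**Figure D4:**
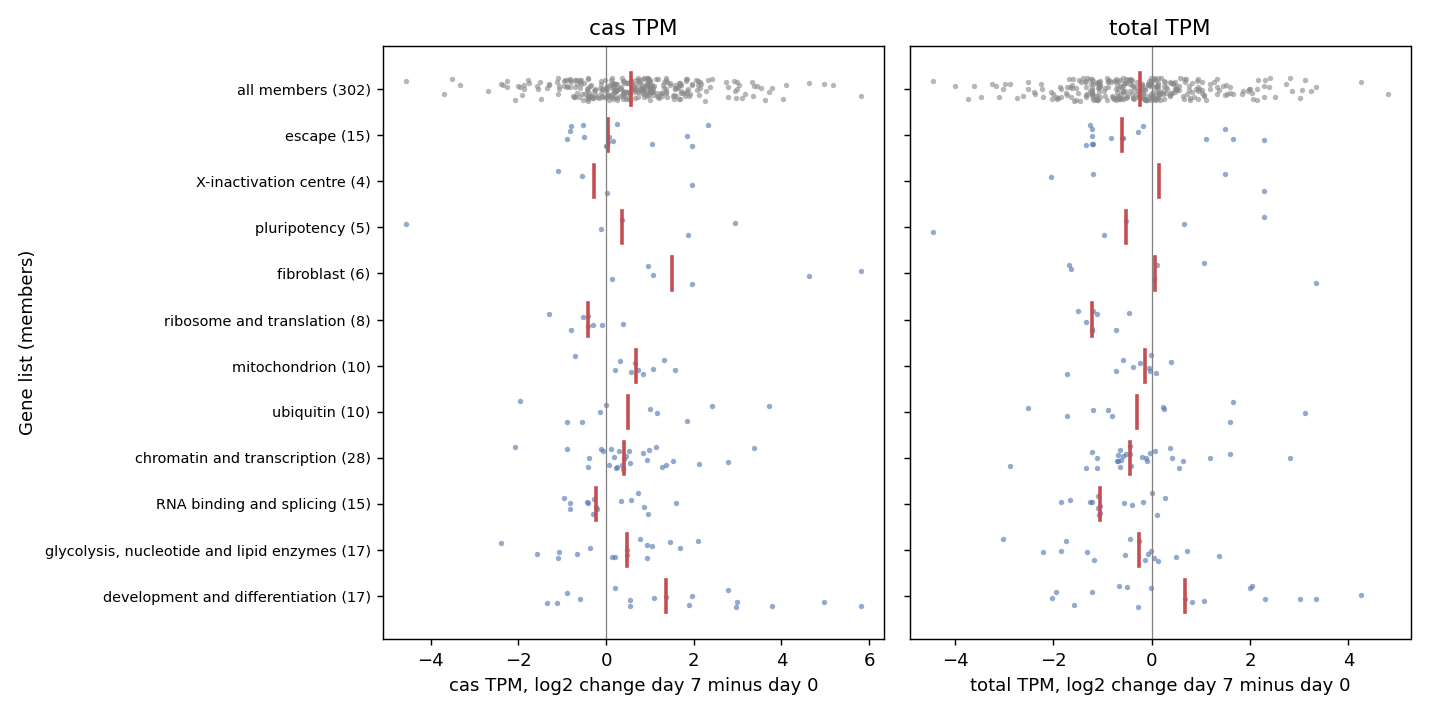
Log2 change of cas TPM (left) and total TPM (right) from day 0 to day 7 for all 302 members and for the members of each gene list, 1 point a gene with vertical jitter only, and the median as a red bar. The ribosome and translation list has a median total change of -1.20 and the development list one of 0.68, beside -0.24 for all members.

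Of 12 pluripotency genes 5 were members, and 3 fell and 2 rose in total, where 54.0% of all genes tested fell and 30.9% rose. Besides Nr0b1 and Dusp9, Tfe3, a transcription factor of the lysosomal and stem cell programmes, gained cas RNA, from 88.1 ± 6.81 to 113 ± 1.08 TPM, and fell in total, and Morc4 rose from 15.4 ± 3.0 to 123 ± 0.695 TPM in cas RNA. Markers of fibroblasts bear on day 0, when feeders were present. The 6 fibroblast members had cas RNA higher in 5, and total RNA fell in 2, rose in 2 and was not called in 2. Cas RNA was higher in 57.1% of all genes tested. Their summed mus RNA was 559 and 554 TPM at day 0 and 77.9 and 85.5 TPM at day 7. Their summed cas RNA was 349 and 328 TPM at day 0 and 786 and 768 TPM at day 7. Day 0 mus shares were 99.9% for Bgn, 98.3% for Col4a5 and 72.3% for Timp1, an inhibitor of metalloproteinases, and 48.6% for Fhl1, 54.0% for Flna and 53.1% for Msn. The summed list held more mus than cas RNA at day 0, and none of the 6 was at 0 in total RNA. The part of feeder RNA in the mus loss was not tested.

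Sequences upstream of 4 genes that stand for different outcomes are shown, chosen after their values were seen: an offset (Idh3g), a gain (Col4a5), a loss on both alleles (Nr0b1) and a gain on both alleles (Amot). Each is the 250 bases before the first RefSeq start of the gene in GRCm38.p6, from the reference and not from either allele, with CG dinucleotides in capitals. The positions are Idh3g chrX:73786898-73787147 (minus strand), Col4a5 chrX:141475169-141475418 (plus strand), Nr0b1 chrX:86191525-86191774 (plus strand) and Amot chrX:145487640-145487889 (minus strand).
Idh3g: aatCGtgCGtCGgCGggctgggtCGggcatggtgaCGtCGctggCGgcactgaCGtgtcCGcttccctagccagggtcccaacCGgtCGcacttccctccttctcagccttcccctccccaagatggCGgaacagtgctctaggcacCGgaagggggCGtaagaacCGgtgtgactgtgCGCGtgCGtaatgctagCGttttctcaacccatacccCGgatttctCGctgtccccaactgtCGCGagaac
Col4a5: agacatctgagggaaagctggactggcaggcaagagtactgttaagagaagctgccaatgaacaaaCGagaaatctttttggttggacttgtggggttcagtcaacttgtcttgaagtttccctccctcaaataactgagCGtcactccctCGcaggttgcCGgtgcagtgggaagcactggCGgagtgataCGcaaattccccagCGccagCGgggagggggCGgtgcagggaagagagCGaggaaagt
Nr0b1: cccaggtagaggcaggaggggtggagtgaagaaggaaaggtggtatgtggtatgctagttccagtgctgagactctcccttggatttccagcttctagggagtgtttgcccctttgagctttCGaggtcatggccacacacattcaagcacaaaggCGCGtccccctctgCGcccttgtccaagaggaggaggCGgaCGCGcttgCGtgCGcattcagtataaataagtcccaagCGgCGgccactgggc
Amot: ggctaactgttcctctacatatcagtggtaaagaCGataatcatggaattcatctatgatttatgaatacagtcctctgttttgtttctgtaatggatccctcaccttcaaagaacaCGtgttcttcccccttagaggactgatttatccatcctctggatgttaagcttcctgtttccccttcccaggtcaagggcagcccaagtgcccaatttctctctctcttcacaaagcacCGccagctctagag
The windows hold 24 CG dinucleotides in Idh3g, 10 in Col4a5, 11 in Nr0b1 and 3 in Amot. Upstream windows were found for 258 of 302 members, with a median of 12 CG dinucleotides beside 6 over all 27025 genes of the table. The median was 15 for genes with an offset, 12 for those with a higher total, 14 for partial offsets, 11 where cas RNA was not called, 12 where both alleles fell and 6 for the 10 matched genes whose mus RNA was not lower. The motif TATAAA, on either strand, was in 1 of 44 windows of offset genes (2.27%), in 8 of 61 of genes that fell on both alleles (13.1%) and in 8.14% of members, beside 12.97% of all genes. Nr0b1 is the 1 window shown that holds it. These counts are descriptions of the windows.

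Members lay along the whole chromosome, and in 20 Mb windows of GRCm38 the share whose total fell ran from 41.5% (60 to 80 Mb, 53 genes) to 62.5% (20 to 40 Mb, 16 genes). The median offset ran from 28.2% (160 to 180 Mb, 24 genes) to 99.4% (60 to 80 Mb), and genes that rose and genes that fell were found in every window. With members split in 4 by their mean TPM over all 6 libraries, total rose in 36 and fell in 31 of the 76 members with the least RNA and rose in 13 and fell in 48 of the 76 with the most. The median offset in these 4 sets was 118%, 75.2%, 20.02% and 33.1% from the lowest to the highest. The read minimum bears most on the lowest set, which spans 4.20 to 26.5 TPM. Of the 70 genes under that minimum, 49 missed it at day 7 only and 15 at day 0 only. Their total was called lower in 44 and higher in 22, with a median of 14.1 TPM at day 0. How far the minimum shaped the differences between the sets was not tested. Total changes from TPM and from the summed reads of both alleles (edgeR, libraries scaled to the median gene) had a Spearman correlation of 0.915 over the 302 genes, as a description, since genes are not independent replicates and both measures come from the same libraries. Of the 157 genes lower in TPM 126 were also lower in reads and 6 were higher (Ddx3x, Igbp1, Maged1, Pim2, Rps6ka6 and Tceal9), and of the 93 higher in TPM 77 were higher in reads and 1, Atp7a, was lower. Part of this agreement in direction is built in, since libraries were scaled by the median ratio of reads to TPM.

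**Figure D5:**
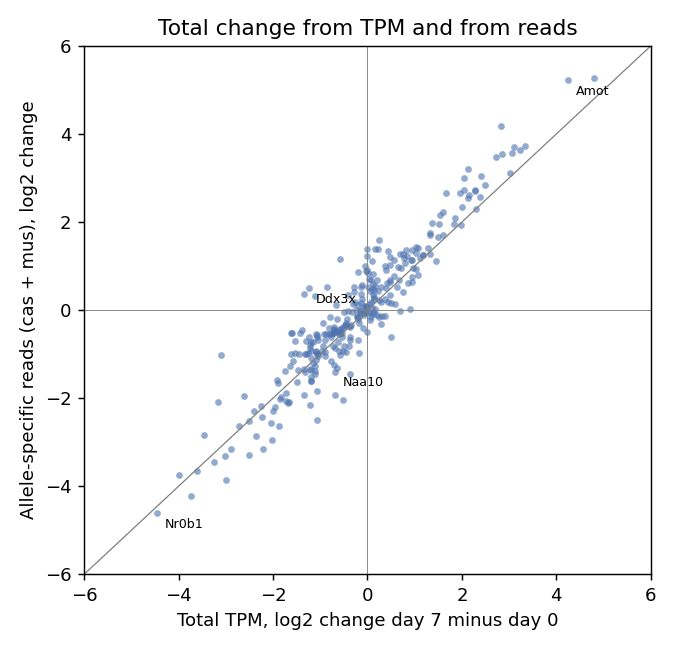
Log2 change of total TPM (x axis) and of allele-specific reads of both alleles (y axis) for the 302 genes, 1 point a gene, with the line of equality. Points follow the line with an SD of 0.528 around their median difference of 0.161, and Ddx3x lies above 0 in reads and below 0 in TPM. Libraries were scaled by the median ratio of reads to TPM, so points centre near the line by construction.

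The groups at the ends were held under more settings than those in the middle. Over all 14 alternative fits, 41 of the 82 genes with a higher total and 36 of the 73 with both alleles lower stayed in their group, as did 9 of the 11 whose mus RNA was not lower. Of the 52 offset genes 0 did, of the 42 with a partial offset 1, and of the 42 with cas RNA not called 0. Genes held in every fit included Col4a5, Efnb1, Gpc3, L1cam, Med12, Nsdhl, Tbl1x and Usp11 among the gains. Among the losses they included Atrx, Bex1, Eif2s3x, Kdm6a, Nr0b1, Pgk1, Prps1, Rps4x, Sms and Usp9x. Bgn was the 1 partial offset. Bgn and Col4a5 are fibroblast marker genes, and none of the fits takes feeder RNA at day 0 into account. Relative to the summed listed genes 49 of the 52 offset genes had a higher total and 2 stayed, so which genes offset their loss exactly depends on the scale between libraries. Leaving out day 0 replicate 1 or replicate 2 lowered the 52 to 34 or 36, while leaving out day 7 replicate 1 or replicate 2 raised it to 63 or 62. Without those day 7 libraries the partial offsets were 25 and 24, and the totals kept between 20% lower and 25% higher were 20 and 21. At the edge of the read minimum, Ccdc160 and 3830417A13Rik had 20 reads on their lower day and Cnksr2 21.5, while Arhgap4 had 19.5, Dock11 19 and Trap1a 18.5. Total changes of these 6 were -2.23, 2.13 and 2.05 inside the minimum and -1.49, 0.050 and -4.03 outside it, in the same order.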

How the data were processed

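The files hold 372 X-linked genes in 6 libraries of days 0, 4 and 7, with 1 column per library and allele. The deposited estimated counts are allele-specific reads per gene in steps of 0.5, not normalised. The deposited fraction is the cas or mus share of those reads, equal to the share recomputed here within 1e-09. The deposited TPM are relative to all transcripts of a library, per the file headers. The submitters' processing notes list HOMER 4.10, limma, edgeR, STAR and Trim Galore 0.4.1 beside the builds GRCm38 and mm10, without roles. Which tool counted reads, and with which strand setting, is not given in the sources used here.

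Allele TPM were tested with limma 3.58.1 (R 4.3.3) on log2(TPM + 1) over all 6 libraries and the whole table, with Benjamini-Hochberg adjustment and no replicate block. Intervals are 95% limma intervals, and SDs are over 2 libraries. The alternative on reads, rounded to whole numbers, used edgeR 4.0.16. Its library sizes were ratios of allele-specific reads to TPM. On the sum scale this was the ratio of the sums. Scaled to the median gene it was the median ratio over genes with a mean of at least 10 reads. Exact permutation tests used scipy 1.17.1. Both models were tested on simulated data. Other alternatives were the pseudocount, the read minimum, the scale between libraries, the libraries fitted and each library left out; the edgeR fit scaled to the median gene was chosen after seeing the data.

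Named by rule were the members on the escape and X-inactivation centre lists, the 8 offset genes, 5 partial offsets and 8 genes with mus RNA not lower with the highest day 0 TPM, the 6 gains with the largest rise and 8 losses with the largest fall of total, and the 2 members of each other list with the highest day 0 TPM. Genes named beyond these, such as Gpc3, Efnb1, Atrx, Sms, Bgn, Usp11 and G6pdx, were chosen after their values were seen. The members and lists were chosen with earlier results of these data known. Upstream sequences and genes are from RefSeq, GRCm38.p6. Some named genes are not reported here.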

Additional observations from a re-analysis of the deposited data

How the results depend on the processing

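The counts of genes lower in mus, lower in total and higher in cas RNA stayed within 1.5 times their value under every alternative run. Relative to the summed listed genes, 44 genes were lower in cas RNA and 153 higher in total, 135 had a higher total after the mus loss, 44 fell on both alleles, the median offset was 116% and the summed offset 115%. Centred on the median gene, 33 genes offset their loss, with a median of 89.1% and a summed offset of 85.6%. Offsets on both of these scales are partly set by construction, as the summed or the median total is held equal between libraries. In edgeR on reads, 21 had a partial offset and 64 no cas call, with 19.9% and 30.9%; scaled to the median gene it gave 22 partial offsets, 68.7% and 91.4%. With the day 7 pair as 1 library, 25 had a partial offset and 20 a total kept between 20% lower and 25% higher; 85 were kept within 1.5-fold. Without a read minimum the offsets were 37.5% and 33.0%. Mus RNA was higher in 3 genes with at least 50 reads and in 2 with a day 0 mus share of 35% to 65%.

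Leaving out 1 library at a time gave 34 to 63 offset genes, 24 to 61 partial offsets, 28 to 58 without a cas call, 70 to 90 gains, 67 to 80 losses on both alleles, 20 to 49 totals kept between 20% lower and 25% higher, a median offset of 41.3% to 54.2% and a summed offset of 39.4% to 47.5%. It gave 282 to 290 genes lower and 4 to 5 higher in mus, 67 to 81 lower and 171 to 197 higher in cas, and 149 to 165 lower and 85 to 103 higher in total RNA. Where it leaves a day with 1 library, that library is assumed to vary like the others.

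Directions reversed for 15 named genes. Relative to the summed listed genes and centred on the median gene, cas RNA of 5530601H04Rik was 0.42 and 0.27, of Dusp9 0.37 and 0.20 and of Uba1 0.34 and 0.17, and total RNA of Cdk16 0.43 and 0.26, of Prdx4 0.47 and 0.30 and of Maged1 0.27 and 0.10. On the first scale the totals of Syap1 and 4933407K13Rik were 0.30 and 0.13. In edgeR on reads, with either scale, total RNA of Cdk16 was 0.57 and 1.003, of Prdx4 0.79 and 1.22, of Maged1 0.42 and 0.86 and of Ddx3x 0.059 and 0.49, and cas RNA of Ddx3x 0.50 and 0.93 and of Naa10 -0.82 and -0.38. On the sum scale alone, cas RNA of Kdm5c was -0.28, of 1810030O07Rik -0.55, of Smc1a -0.30 and of Bex2 -0.21, and the total of Pja1 -0.66. On the median scale alone, cas RNA of Uba1 was 0.27 and the total of 4933407K13Rik 0.17. The cause was not tested.

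The replicate numbers were not taken as pairs, since replicate differences in total TPM correlated at 0.046 between days 0 and 7, 0.066 between days 0 and 4 and -0.99 between days 4 and 7, which shows that the day 4 and day 7 TPM depend on each other. With the replicate block 48 genes offset their loss and 158 lost total RNA, and the median offset was 52.1%. Depth limits the shares of genes near 20 reads most.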
